A study of Mus musculus with 3 samples.

Results

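Callus cells that held transcripts of mitotic genes together with those of fibroblastic osteoprogenitors were examined in droplet single-cell libraries of mouse fracture callus. A cell was counted as a cycling fibroblastic osteoprogenitor when it had unique molecular identifiers (UMIs, each standing for 1 captured transcript) of at least 3 of the 6 genes *Mki67*, *Top2a*, *Hmmr*, *Ccnb2*, *Birc5*, and *Ube2c*, and more *Aspn* than *Col9a1* UMIs. *Aspn* encodes asporin, a small proteoglycan of fibrous skeletal tissue, and *Col9a1* encodes a collagen IX chain of cartilage. Only cells with at least 500 genes, at most 10% mitochondrial and 5% hemoglobin UMIs, and no UMI of the leukocyte gene *Ptprc* were kept, 7328 of 8801 deposited at day 10 and 10625 of 12984 at day 14. By this rule 360 (day 10) and 374 (day 14) of them were cycling, 734 of 17953 in both libraries. Cells with more *Aspn* than *Col9a1* and none of the 6 transcripts, 1839 at day 10 and 4449 at day 14, served as the non-cycling comparison. These measured values chose the cells, so the levels of the 6 genes, of *Aspn*, and of *Col9a1*, and every difference from the non-cycling cells, are descriptions.

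The callus came from mice after a femoral fracture, with 1 library each at day 7, day 10, and day 14. The study describes all its mice as C57BL/6 in background. Its femurs were cut through with scissors under isoflurane and held by an intramedullary steel pin, with buprenorphine for pain. The paper does not give the genotype of the mice behind these libraries, or say whether they had tamoxifen. Muscle and marrow were removed, the callus was digested with collagenase, and live cells without CD31, CD45, and TER119 were sorted, so endothelial, hematopoietic, and erythroid cells were meant to be left out by the gate. The number, sex, and age of the animals behind each library are not given in the sources used here, and the study states that both sexes were used in its experiments. The libraries of days 10 and 14 held 11058 and 14015 UMIs of *Ddx3y* on the Y chromosome, against 15 and 15 of *Xist*. With 1 library per day there is no replicate, no test was made, and each range in parentheses is a 95% interval that covers counting error only, not the spread between cells, animals, or libraries.

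A dividing cell copies its DNA in S phase and separates the copies in mitosis after the G2 phase. E2F proteins switch on the S phase genes, while the DREAM and MuvB complexes with B-MYB and FOXM1 control the G2/M genes through CHR and CCAAT elements in their promoters. In a healing fracture, fibroblast-like cells of the periosteum multiply before they form cartilage and bone, and they secrete periostin, collagen I, and collagen III.

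Promoters of genes from the S phase and G2/M lists, both higher in cells chosen by mitotic transcripts, are shown with the letters they hold. The genes were required to hold such letters, so what the shown promoters share follows from that choice. The 150 bases before the annotated transcription start are given 5′ to 3′ in the direction of the gene, from RefSeq, build GRCm38.p6. Capitals mark matches on either strand to the letters TTTGAA (called CHR here), to CCAAT, and to any of the E2F letters TTTCCCGC, TTTGGCGC, and TTTCGCGC. *Cks1b*, *Cdk1*, and *Cdc20* are G2/M genes, and *Mcm6* and *Hells* are S phase genes. They are those with the most UMIs in the cycling cells among 10 G2/M genes with CHR and CCAAT, and 5 S phase genes with E2F letters, in this stretch and with at least 2-fold more CPM (UMIs per 1000000) in the cycling than in the non-cycling cells of both libraries. Only genes with a single promoter window were considered, and the genes of a chromosome set aside were not.
Cks1b, chr3:89418292-89418441, minus strand: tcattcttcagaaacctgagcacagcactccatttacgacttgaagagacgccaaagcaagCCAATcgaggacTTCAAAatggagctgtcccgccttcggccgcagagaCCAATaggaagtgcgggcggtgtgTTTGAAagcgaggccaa
Cdk1, chr10:69352913-69353062, minus strand: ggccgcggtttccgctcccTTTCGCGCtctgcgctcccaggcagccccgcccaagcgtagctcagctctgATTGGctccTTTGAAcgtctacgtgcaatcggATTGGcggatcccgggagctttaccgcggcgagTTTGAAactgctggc
Cdc20, chr4:118437344-118437493, minus strand: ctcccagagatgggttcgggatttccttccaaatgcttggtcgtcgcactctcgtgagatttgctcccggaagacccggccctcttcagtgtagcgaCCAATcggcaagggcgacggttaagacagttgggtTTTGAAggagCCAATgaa
Mcm6, chr1:128359706-128359855, minus strand: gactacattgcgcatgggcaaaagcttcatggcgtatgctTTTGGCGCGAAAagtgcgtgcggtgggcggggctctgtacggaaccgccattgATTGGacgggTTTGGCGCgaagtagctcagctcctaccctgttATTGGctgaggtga
Hells, chr19:38930840-38930989, plus strand: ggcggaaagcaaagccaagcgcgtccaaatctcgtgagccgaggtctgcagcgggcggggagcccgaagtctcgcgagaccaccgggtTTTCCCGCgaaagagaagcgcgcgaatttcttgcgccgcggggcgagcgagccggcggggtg

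In *Cks1b*, *Cdk1*, and *Cdc20* a CHR began at positions -17, -15, and -18 from the start, with a CCAAT farther upstream in each. In the *Mcm6* window 2 of the 3 E2F matches overlap, one on each strand. In windows of 250 bases before the start, CHR letters were found for 18 of 49 G2/M genes with a window (36.7%), 4 of 32 S phase genes (12.5%), and 18.3% of all 27025 genes with a window. CHR and CCAAT occurred in the same window for 34.7% of the G2/M genes and 6.45% of all genes. CCAAT alone was common, at 79.6% of G2/M genes, 65.6% of S phase genes, and 37.5% of all genes. E2F letters were found for 8 S phase genes (25%), 2 G2/M genes (4.08%), and 1.78% of all genes. A match of letters is not a bound site, and no binding was measured.

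The share of cells that were cycling was set against both denominators. Cycling cells were 4.91% (4.43 to 5.43) of the cells within the limits at day 10 and 3.52% (3.18 to 3.89) at day 14. Among cells with more *Aspn* than *Col9a1* they were 13.9% (12.6 to 15.3) of 2583 at day 10 and 6.89% (6.23 to 7.59) of 5432 at day 14. The day 14 share was the lower one on both denominators, and the intervals did not overlap. On the cartilage side, with more *Col9a1* than *Aspn*, 299 of 4500 cells (6.64%) at day 10 and 224 of 4419 (5.07%) at day 14 were cycling by the same 6 genes. A day and its library cannot be told apart.

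Depth moved with the rule. The median UMI total was 21304 in the cycling cells of day 10 and 20436 at day 14, against 15047 and 14061 in the non-cycling cells. More than 5000 genes were seen in 29.7% and 32.6% of the cycling and in 6.58% and 6.00% of the non-cycling cells. After each cell was thinned to 5000 UMIs, leaving out 6 and 2 cycling and 74 and 405 non-cycling cells that were shallower, the median number of genes was 2004 and 1993 in cycling cells against 1921 and 1903. Applied to the thinned cells, the rule found 217 of 2425 cells (8.95%) at day 10 and 238 of 4813 (4.94%) at day 14. Both shares were lower at the thinned depth, and that of day 10 was still the higher one. No doublet caller was run, and the part of doublets in the deeper cells was not tested.

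The threshold had values on both sides. With UMIs of 1 of the 6 genes there were 289 and 513 *Aspn*-side cells, with 2 there were 95 and 96, just outside the rule, with 3 there were 51 and 85, just inside it, and with all 6 there were 139 and 144. Cells that met the mitotic side of the rule with 1 more *Aspn* than *Col9a1* UMI numbered 17 and 13, those with equal counts, which were left out, 15 and 35, and those with 1 more *Col9a1* UMI 17 and 13. Most cycling cells lay far from that line, since 263 of 360 and 268 of 374 had at least 10 times as many *Aspn* as *Col9a1* UMIs. No cell barcode was shared between the cycling cells of the 2 days, and 35 were shared among all deposited cells.

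The label was checked against its markers. *Mki67* (chr7:135689784-135716361 in GRCm38), the gene of the proliferation antigen, stood at 197 and 166 CPM at days 10 and 14. *Top2a* (chr11:98992943-99024189), the DNA topoisomerase of dividing cells, stood at 289.9 and 294 CPM. Both are 0 in the non-cycling cells by the rule. *Postn* (chr3:54361109-54391037), which encodes periostin, was the one marker that the rule did not use. It had a UMI in 98.6% and 97.3% of the cycling cells and in 99% and 96% of the cycling cells of the cartilage side, so its detection did not separate them. Its level was 3390.1 and 2501 CPM here and 919 and 682 CPM on the cartilage side.

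Other cell types were looked for with their own markers. The 8 hematopoietic markers summed to 5.78 and 78.7 CPM at days 10 and 14 in the cycling cells, and to 9.52 and 229.8 CPM in the non-cycling cells. *Ptprc* was 0 by the rule, and *Lyz2* was at 1.76 and 6.71 CPM. The 6 endothelial markers summed to 10.0 and 9.35 CPM and the 5 erythroid markers to 5.90 and 5.64 CPM, and *Alas2* was at 0 in both. None of these 3 lists had a gene that reached, in both libraries, the mean of 10 CPM required for a comparison with the non-cycling cells, and *S100a8* and *S100a9* reached it at day 14.

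Chondrocyte and pericyte transcripts were present at higher levels. The 10 chondrocyte markers summed to 3442 and 4515 CPM at days 10 and 14, against 45168 and 41262 CPM in the cycling cells of the cartilage side. At least 100 *Col2a1* UMIs per 10000 were held by 2.22% and 4.55% of the cycling and 5.0% and 4.18% of the non-cycling cells. *Rgs5*, a marker of pericytes, reached 10 UMIs per 10000 in 16 cycling cells at day 10 (4.44%) and 25 at day 14 (6.68%), against 44 (2.39%) and 145 (3.26%) non-cycling cells. These *Rgs5*-rich cycling cells carried *Rgs5* at 7756 and 10612 CPM and *Ogn* at 15.5 and 36.6 CPM, while the other cycling cells had *Rgs5* at 1.98 and 5.28 CPM and *Ogn* at 415 and 438 CPM. The cells that meet the rule therefore include a small set with pericyte transcripts.

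A gene was called higher or lower when its CPM differed at least 2-fold and its counting interval excluded 1, among genes with a mean of at least 10 CPM. Against the non-cycling cells, 290 of 7669 genes were higher in both libraries (3.78%) and 40 were lower in both (0.522%). The median log2 ratio of all genes was 0.03 at both days. Of the G2/M list without the 6 rule genes, 49 of 50 measured genes were higher and none was lower, with a median log2 ratio of 5.73 at day 10 and 6.23 at day 14. Of the S phase list, 35 of 36 measured genes were higher and none was lower, with medians of 2.55 and 2.66. Cells chosen by mitotic transcripts had to show such genes, and nothing is read from these counts.

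**Figure D1:**
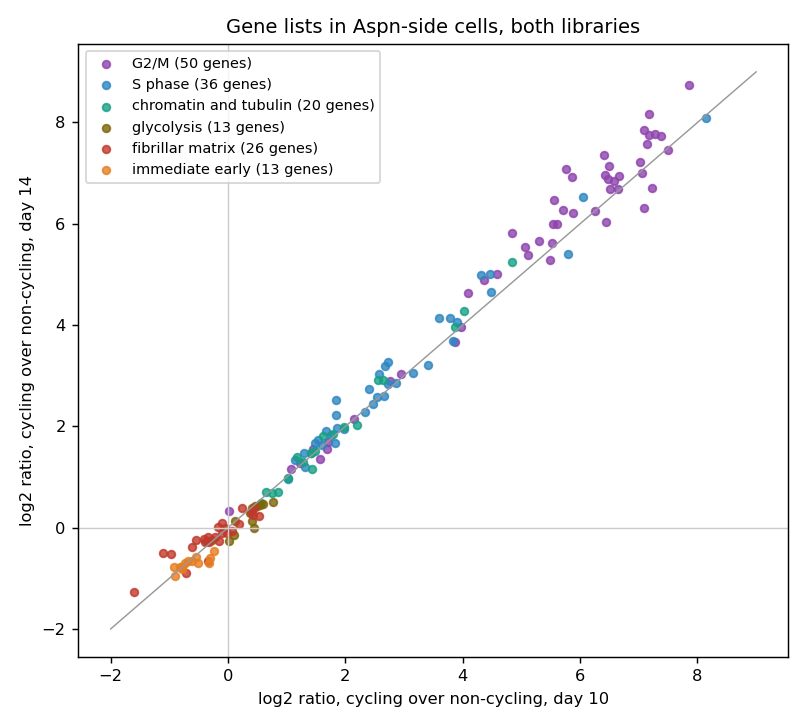
Log2 ratios of cycling over non-cycling *Aspn*-side cells at day 10 (x axis) and day 14 (y axis), 1 point per gene that passed the filter in both libraries, colored by list, with the line of equal ratios. G2/M genes sit furthest up, with medians of 5.73 and 6.23, S phase genes follow with medians of 2.55 and 2.66, and fibrillar matrix and immediate early genes sit near or below 0.

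Both lists were also present at a low level in the non-cycling cells, where the S phase genes summed to 456 and 413 CPM and the G2/M genes to 435 and 447 CPM, against 2203 and 2132 CPM and 5009 and 5477 CPM in the cycling cells. *Cdk1*, the kinase that starts mitosis, was at 171 against 8.34 and 204 against 6.94 CPM at days 10 and 14. *Cdc20*, which activates the ligase that ends metaphase, was at 129 against 2.22 and 146 against 1.2 CPM. In the non-cycling cells these levels rested on 240 and 457 UMIs of *Cdk1* and 64 and 79 of *Cdc20*. *Pcna*, the sliding clamp of DNA replication, was at 137 against 40.5 and 130.3 against 36.6 CPM, and *Mcm6*, a subunit of the replicative helicase, at 49.2 against 17 and 48.1 against 14.5 CPM. The exception among the G2/M genes was *Pttg1*, which encodes securin, at 31.9 against 31.5 and 45.7 against 36.6 CPM. The S phase exception was *Slbp*, the histone mRNA binding protein, with log2 ratios of 1.02 and 0.96, on either side of the 2-fold line.

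The genes furthest above the non-cycling cells in both libraries included *Ccna2* (cyclin A2), *Pclaf*, which binds the PCNA clamp, *Bub1*, a kinase of the spindle checkpoint, *Cep55*, which acts in the last step of cytokinesis, and *Hist1h1b*, a linker histone. *Pclaf* was at 286 against 1.22 and 311 against 1.0 CPM at days 10 and 14. *Ccna2* was at 108 and 120.0 CPM in the cycling cells and rested on 11 and 29 UMIs in all non-cycling cells. *Cep55* had 3 UMIs in the non-cycling cells of either day, with a log2 ratio of 7.85 (6.28 to 10.14) and 9.05 (7.48 to 11.34). *Pimreg* had 3 UMIs in the non-cycling cells of day 10, with a log2 ratio of 8.53 (6.96 to 10.81), and *Pbk*, *Depdc1a*, and *Ckap2l* had log2 ratios between 7.45 and 8.91 across both libraries.

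Of the 20 chromatin and tubulin genes, 15 were higher in both libraries, with median log2 ratios of 1.46 and 1.49, against 3.78% of all genes. On the cartilage side 15 of the 20 were also higher in cycling than in non-cycling cells, with medians of 1.79 and 1.58. The cells were chosen by mitotic transcripts, so nothing is read from these counts either. *H2afz*, the histone variant H2A.Z, was at 1637 against 263 and 1883 against 249 CPM at days 10 and 14. *Stmn1*, which encodes the tubulin-binding stathmin, was at 426 against 14.9 and 664 against 17.5 CPM. *Hmgb2*, an abundant chromatin protein, was at 621 against 42.8 and 650.0 against 42 CPM. *Ptma*, *Set*, *Hmgn1*, and *Cbx5* differed by less than 2-fold.

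The regulators of the G1 phase were examined next. D-type cyclins with CDK4 or CDK6 drive a cell toward S phase. *Ccnd1* was at 97.6 against 57.6 and 99.8 against 47.4 CPM at days 10 and 14, with log2 ratios of 0.76 (0.64 to 0.88) and 1.07 (0.96 to 1.18). *Ccnd2* stood the other way, at 79.4 against 125 and 62.3 against 103 CPM, within the 2-fold limit. Of the 6 D cyclins and CDKs, *Cdk2* alone was called in both libraries, with log2 ratios of 1.46 and 1.40, against 3.78% of all genes called higher.

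Of 13 measured CDK inhibitors and antiproliferative genes, 2 were called higher and 1 lower in both libraries. Of all genes, 3.78% were called higher and 0.522% lower. *Cdkn2c* (chr4:109660876-109667189), which encodes p18INK4c, was at 48.5 against 14.5 and 80 against 19.3 CPM at days 10 and 14. *Cdkn2d*, which encodes p19INK4d, was at 60.4 against 17.1 and 81.3 against 17.9 CPM. Both encode proteins of the INK4 family and were the called higher ones. *Cdkn1c* (chr7:143458339-143461050), which encodes p57KIP2, was the one called lower in both, at 26.2 against 103 and 40.5 against 90.4 CPM. *Cdkn1a*, which encodes p21, had log2 ratios of -0.79 (-0.90 to -0.68) and -0.41 (-0.49 to -0.32), and *Cdkn1b*, which encodes p27, of -0.26 and -0.03. *Cdkn2b*, which encodes the INK4 protein p15INK4b, was not called, with 0.17 and 0.10. Of 9 measured E2F and DREAM genes 3 were higher, namely *E2f1*, *Foxm1*, and *Lin54*, with log2 ratios of 2.18 and 1.89, 4.47 and 5.06, and 1.58 and 1.43.

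Among the progenitor genes, *Postn* stood level and *Ogn* stood apart. *Postn* was at 3390.1 CPM (3349.8 to 3431) in cycling and 3446 CPM (3425 to 3468) in non-cycling cells at day 10. At day 14 it was at 2501 CPM (2467 to 2535) and 2422 CPM (2411 to 2434). The log2 ratios were -0.02 and 0.05, and over all other settings they lay between -0.09 and 0.02 at day 10 and between -0.17 and 0.11 at day 14, so the sign turned with the settings. Per cell, the median was 27 against 23.5 UMIs per 10000 at day 10 and 17.6 against 16 at day 14. The middle ranges overlapped widely, from 13.6 to 47.7 in cycling and from 11.1 to 44 in non-cycling cells at day 10.

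*Ogn* (chr13:49608046-49624501), which encodes osteoglycin, a small proteoglycan, lies near *Aspn* (chr13:49544443-49567565) on chromosome 13. It was at 396 CPM (382 to 409.9) in cycling and 1269.8 CPM (1257 to 1283) in non-cycling cells at day 10, and at 420.0 (406 to 434) and 1176 CPM (1167 to 1184) at day 14. The log2 ratios were -1.68 (-1.73 to -1.63) and -1.49 (-1.53 to -1.44), lower in both libraries. Per cell, the median was 1.98 against 10.2 UMIs per 10000 at day 10 and 2.35 against 8.45 at day 14. The upper quartile of the cycling cells, 4.88 and 5.37, lay below the median of the others. *Thbs2*, which encodes thrombospondin-2, had log2 ratios of -0.56 and -0.58, and *Ptn*, which encodes the growth factor pleiotrophin, of -0.17 and -0.07, all under 2-fold. *Aspn*, used by the rule, was at 2068 against 3731 and 2261 against 3949.7 CPM.

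**Figure D2:**
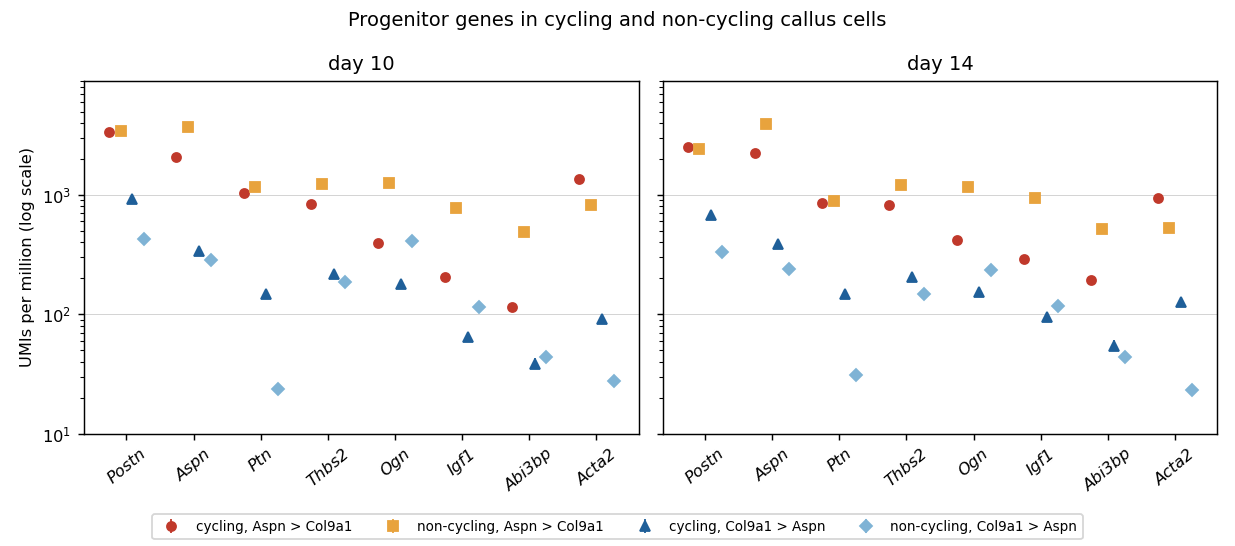
Levels of 8 genes in CPM (log scale) in cycling and non-cycling cells with more *Aspn* than *Col9a1* and in cells with more *Col9a1* than *Aspn*, at day 10 (left) and day 14 (right), with bars, mostly smaller than the symbols, for the 95% counting intervals. *Postn* is level between the cycling and non-cycling *Aspn*-side cells (3390.1 and 3446 CPM at day 10), while *Ogn*, *Igf1*, and *Abi3bp* are lower and *Acta2* is higher in the cycling cells.

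The same contrast was seen from the side of the gene. *Aspn*-side cells were thinned to 5000 UMIs and ranked by a gene's level and split into 3 equal groups, and the share that met the rule was counted in each. By *Ogn*, the share was 16.6%, 8.42%, and 1.86% from the lowest to the highest group at day 10 and 10.2%, 3.87%, and 0.748% at day 14. By *Postn*, it was 10.1%, 7.43%, and 9.28%, and 4.8%, 5.05%, and 4.99%. By *Thbs2*, it was 12.2%, 8.54%, and 6.06%, and 7.66%, 4.68%, and 2.49%. By *Ogn* and *Thbs2* the share was lower in the middle than in the lowest and lower again in the highest group at both days, and the 3 intervals by *Postn* overlapped.

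**Figure D3:**
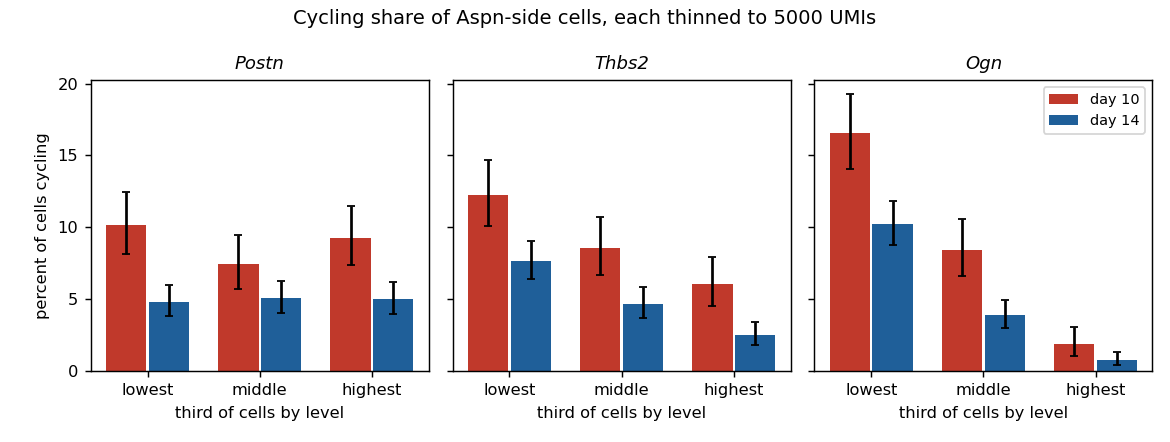
Percent of *Aspn*-side cells that met the cycling rule (y axis) in the lowest, middle, and highest of 3 equal groups of cells by the level of *Postn*, *Thbs2*, or *Ogn*, each cell thinned to 5000 UMIs, with 95% binomial (Clopper-Pearson) intervals. The share runs from 16.6% to 1.86% by *Ogn* at day 10, and stays between 7.43% and 10.1% by *Postn*.

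Levels by the number of rule genes seen followed the same order. *Ogn* was at 1269.8, 873, 698, and 444 CPM in cells with 0, 1, 2, and 3 of the 6 genes at day 10, and at 360.3 CPM in cells with all 6. At day 14 it was at 1176, 921, 780.0, 516, and 349 CPM. Cells with 1 or 2 of the genes, which are in neither group, thus lay between the groups. *Cdkn2c* was at 14.5 and 19.3 CPM in cells with none of the genes, at 10.9 and 21.9 CPM with 3, and at 79.3 and 139.6 CPM with 6. Its higher level was therefore that of cells with 5 or 6 of the genes, and cells with all 6 were also the deepest, with median totals of 24709 and 25503.5 UMIs.

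**Figure D4:**
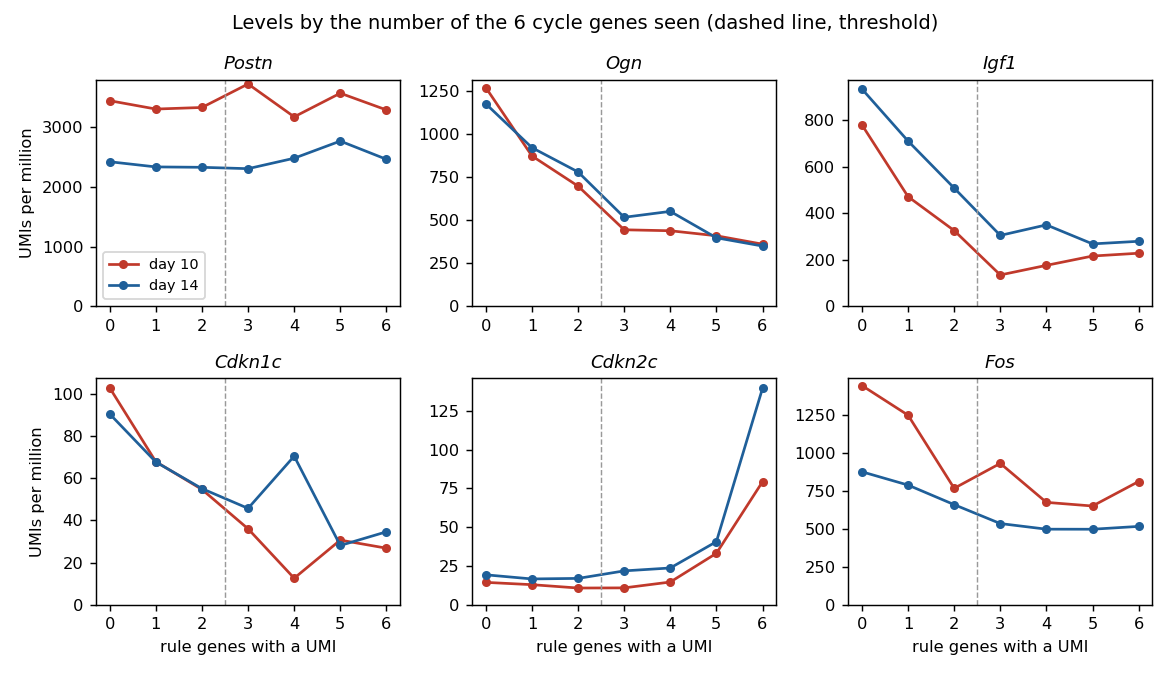
Levels in CPM of 6 genes in *Aspn*-side cells by how many of the 6 rule genes had a UMI (x axis), at day 10 and day 14, with the threshold of the rule as a dashed line. *Ogn* and *Igf1* descend up to the threshold and stay low beyond it, *Postn* is flat, and *Cdkn2c* is high in the cells with 5 or 6 genes.

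*Igf1* and related growth factor genes were compared as a list of secreted signals and receptors. *Igf1* (chr10:87858265-87937042), which encodes insulin-like growth factor 1, was at 204 against 779 and 292 against 934 CPM at days 10 and 14, with log2 ratios of -1.93 (-2.0 to -1.86) and -1.68 (-1.74 to -1.62). It was 1 of 30 measured genes called lower in both libraries, and none was called higher, against 0.522% and 3.78% of all genes. At least 10 *Igf1* UMIs per 10000 were held by 5.0% and 6.42% of the cycling and 26.9% and 32% of the non-cycling cells. *Igf1r*, the receptor, had log2 ratios of -0.06 and -0.13, and *Pdgfra* and *Pdgfrb*, receptors of platelet-derived growth factor, lay between 0.07 and 0.26. *Bmp1*, the procollagen protease, was at -0.15 and -0.11. The list's median was -0.21 and -0.20.

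Fibrillar matrix genes lay close to the non-cycling level, more of them slightly below it than above. Of 26 measured genes none was called higher and 1, *Col14a1*, was called lower in both libraries. Beyond counting error 15 lay below and 6 above, against 1527 below and 2155 above of all 7669 genes. The list's medians were -0.19 and -0.18. *Col1a1* was at 14928 against 19071 and 14469.6 against 17397 CPM at days 10 and 14, and *Col3a1* at 10959.7 against 12738 and 9886 against 11197 CPM. *Sparc*, which encodes osteonectin, was at 12624 against 18356 and 15649.6 against 18512 CPM. All of them lay within 1.5-fold of the non-cycling level in cells with mitotic transcripts. *Tnc* (tenascin C), *Lox* (lysyl oxidase), *Tgfbi*, and *Col6a3* lay above 0 in both libraries, with log2 ratios between 0.22 and 0.52. *Col14a1*, the collagen XIV chain of fibrous tissue, was at 51.5 against 156 and 56.8 against 137 CPM.

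Of all genes, 0.522% were called lower in both libraries and 3.78% higher. Of 8 measured osteoblast markers 2, *Bglap* and *Bglap2*, were called lower in both and none was called higher. They encode osteocalcin, the late osteoblast protein, and are near-identical neighbors on chromosome 3, so reads may have been split between them. *Bglap* was at 4.02 against 79.4 and 40.3 against 164 CPM at days 10 and 14, and *Bglap2* at 7.16 against 106 and 17.9 against 94.8 CPM. *Bglap* was seen in 16.3% of cycling and 15.1% of non-cycling cells at day 14. There, 1 cycling cell held 184 of its 336 UMIs, and 5 cells held 75.3% of them in the cycling and 49.4% in the non-cycling cells. *Sp7* and *Runx2*, the transcription factors of the osteoblast lineage, were within 2-fold, with log2 ratios of 0.28 and 0.22, and -0.09 and -0.04. At least 100 UMIs per 10000 of *Ibsp*, which encodes bone sialoprotein, were held by 8.61% and 10.4% of the cycling and 9.84% and 9.87% of the non-cycling cells.

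The other genes furthest below the non-cycling cells were *Ccn3*, *Cilp2*, *Penk* (proenkephalin), *Mfap4* (a microfibril protein), *Tcp11l2*, *Apoe* (apolipoprotein E), and *Hp* (haptoglobin). *Mfap4* was at 35.3 against 153 and 48.3 against 153 CPM at days 10 and 14. *Hp* was at 38.1 against 177 and 77.5 against 222 CPM. *Abi3bp*, a matrix protein on the list of *Ctsk*-lineage markers, was at 116 against 494 and 193 against 520.0 CPM. *Ctsk* itself had log2 ratios of -0.62 and -0.41.

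Markers of skeletal stem and progenitor cells went both ways, and only *Mcam* of 13 measured was called, higher in both libraries. The shares called over all genes were 3.78% higher and 0.522% lower. *Cd44* was at 266 against 149 and 173 against 120.4 CPM at days 10 and 14, and *Thy1* at 111 against 70.8 and 105 against 69 CPM. *Cd200* stood the other way, at 60.8 against 109 and 89.7 against 129.6 CPM. *Acta2*, the smooth muscle actin, was at 1352 against 822 and 941 against 525 CPM. *Prrx1*, a transcription factor of limb mesenchyme, was level, with log2 ratios of -0.03 and 0.06.

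*Rgs5*, *Mcam*, and *Higd1b* were the 3 of 5 measured pericyte markers called higher, and none was called lower, against 3.78% and 0.522% of all genes. In the *Rgs5*-rich cycling cells *Mcam* was at 327 and 334 CPM and *Higd1b* at 314 and 465 CPM at days 10 and 14. In the other cycling cells *Mcam* was at 3.56 and 5.28 CPM and *Higd1b* at 0 and 0.377 CPM. *Rgs5* was at 379.8 against 167 and 492 against 231 CPM at days 10 and 14. Without the *Rgs5*-rich cells of every group, a setting chosen after the data were seen, its log2 ratio went from 1.18 and 1.09 to -0.64 and 0.19, while that of *Acta2* was 0.57 and 0.72 and that of *Ogn* -1.64 and -1.45. The setting drops cells by *Rgs5* itself, so the change of *Rgs5* is fixed by that choice. Ratios of *Mcam* and *Higd1b* were not computed there. With comparison cells matched on UMIs the *Rgs5* ratios were 3.19 and 1.65. The counts of called genes without the *Rgs5*-rich cells were 286 higher and 43 lower.

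Immediate early and stress genes stood below and several genes of glycolysis above the non-cycling level, each by less than 2-fold. All 13 immediate early and heat shock genes lay below the non-cycling level in both libraries beyond counting error, with medians of -0.68 and -0.69 against 0.03 for all genes. Of all 7669 genes 1527 lay below. *Fos* was at 759 against 1440.5 and 512 against 874 CPM at days 10 and 14. The order was not particular to these cells. On the cartilage side all 13 genes also lay below in cycling against non-cycling cells, with medians of -0.69 and -0.68. Of 13 glycolytic genes in the *Aspn*-side cells, 7 lay above the non-cycling level beyond counting error in both libraries and none below it in both. Of all 7669 genes 2155 lay above. *Pgk1* had log2 ratios of 0.77 and 0.50 and *Gapdh* of 0.49 and 0.43. On the cartilage side 9 of the 13 lay above and 2 below in cycling against non-cycling cells. Of 8 measured p53 targets and apoptosis genes none was called.

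The cycling cells themselves were split by which list they carried more of. More G2/M than S phase UMIs were held by 281 of 360 cells at day 10 and 299 of 374 at day 14, more S phase UMIs by 78 and 73, and equal numbers by 1 and 2. The 6 genes of the rule act mainly in G2 and mitosis, so cells early in S phase can be missed. Of the non-cycling cells 28 (1.52%) and 59 (1.33%) had an S phase level at or above the median of the cycling cells. *Cenpa*, a centromeric histone, was at 396 against 25.3 CPM in the G2/M and S cells of day 10, and *Mcm5* at 19.5 against 113 CPM, as the split itself fixes.

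Genes outside the cycle lists were then read along that split. *Postn* was at 3419.6 against 3289 and 2564 against 2312 CPM at days 10 and 14. *Ogn* was at 310.1 against 672 and 370.5 against 585 CPM. *Cd44* was at 288 against 197 and 189.8 against 121 CPM. *Ogn* was thus lower in the cells with more G2/M UMIs at both days, though still lower in the S cells than the 1269.8 and 1176 CPM of the non-cycling cells, and *Cd44* was higher in them. *Cdkn2c* was at 53 against 34.3 and 89.8 against 48.3 CPM. *Igf1* was at 173 against 304 and 272 against 360.5 CPM. The S cells were the deeper ones, with median totals of 24316 against 20360.0 UMIs at day 10 and 27019 against 19753 at day 14.

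Against the cycling cells of the cartilage side, 377 of 7495 genes were higher in both libraries (5.03%) and 247 were lower (3.3%). The cartilage-side cycling cells were deeper, with median totals of 28296 and 27389.5 UMIs at days 10 and 14 against 21303.5 and 20436. More than 5000 genes were seen in 45.2% and 42.0% of them, against 29.7% and 32.6%. The median log2 ratio of all genes was 0.12 at day 10 and 0.18 at day 14 and became -0.02 and -0.01 when the sums were scaled by the median of ratios, which turned the split to 270 higher and 302 lower. On the cartilage side, 393 of 7126 genes were higher (5.52%) and 79 lower (1.11%) in the cycling than in the non-cycling cells. The higher ones included 51 of 52 G2/M and 34 of 34 S phase genes. Between the 2 kinds of cycling cells, none of 40 S phase genes was called and 1 of 56 G2/M genes was called higher. *Cdc20* was at 129 against 127 and 146 against 143 CPM at days 10 and 14. The same 6 genes chose both kinds of cycling cells, so nothing is read from the cycle lists here. These comparisons were also shaped by the *Aspn* and *Col9a1* counts that separate the groups, and their values are descriptions.

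All 6 measured genes of the tendon and contractile list were called higher on the fibroblastic side in both libraries, against 5.03% of all genes. *Acta2* was at 1352 against 91.2 and 941 against 127 CPM at days 10 and 14, and *Tagln*, which encodes transgelin, at 666 against 38.5 and 445 against 63.4 CPM. *Mfap5*, a microfibril protein, was at 233 against 18.8 and 271 against 27.8 CPM. *Lrrc15*, *Col4a2*, *Col18a1*, *Spon1*, and *Aoc3* were among the 10 furthest higher genes, with log2 ratios between 2.74 and 4.11. *Lrrc15* had a UMI in 68.9% and 58.6% of the fibroblastic cycling cells, *Col18a1* in 45% and 50.8%, and *Spon1* in 46.7% and 63.4%. *Aoc3* was seen in 26.9% and 27.3% and *Col4a2* in 19.2% and 18.2%, and 5 cells held 34.7% and 33.6% of the *Col4a2* UMIs. *Gzmd* and *Gzme*, related granzyme genes whose reads may be shared, were at 30.5 against 3.94 and 35.7 against 4.52 CPM at day 10 and at 25.7 against 1.67 and 31.7 against 3.49 CPM at day 14. Their UMIs were concentrated, since 5 cells held 61.7% and 77.6% of those of *Gzmd*.

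Cartilage genes follow from the rule and are given as levels. *Col2a1* was at 1401 CPM in the fibroblastic and 30074 CPM in the cartilage-side cycling cells at day 10, and at 2309 and 28008 CPM at day 14. *Matn1*, which encodes the cartilage protein matrilin-1, was at 3.27 against 115 and 2.52 against 47.8 CPM. *Elane*, a neutrophil protease, was at 0.251 against 31.7 and 1.2 against 75.1 CPM, and 1 cartilage-side cell held 273 of 274 of its UMIs at day 10 and 381 of 495 at day 14. The hematopoietic markers summed to 5.78 and 78.7 CPM on the fibroblastic and to 298 and 824 CPM on the cartilage side, where 1 cell held 1265 of 1269 *S100a9* UMIs at day 10 and 2537 of 3159 at day 14. Their part in this comparison was not tested.

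Of 6 D cyclins and CDKs 1 was called higher and 1 lower than in the cartilage-side cycling cells, and of 15 inhibitors and antiproliferative genes 2 were called higher and 1 lower. For this comparison the shares over all genes were 5.03% higher and 3.3% lower. *Ccnd2* was at 79.4 against 26.8 and 62.3 against 25 CPM at days 10 and 14, higher in the fibroblastic cells of both libraries. *Cdk6* was lower, at 47.1 against 109 and 53.5 against 109.8 CPM. *Cdkn1c* was lower as well, at 26.2 against 160.4 and 40.5 against 128 CPM, while *Cdkn2b*, which encodes p15INK4b, was higher, at 73.3 against 20.7 and 58.3 against 18 CPM. Of 29 measured signals and receptors 10 were called higher and 1 lower, and of 12 stem and progenitor markers 7 were called higher and none lower, with *Pdgfrb* at 113 against 29.1 and 109 against 27.1 CPM and *Thy1* at 111 against 13.9 and 105 against 18 CPM. *Igf1* was higher in the fibroblastic cycling cells than in those of the cartilage side, at 204 against 64 and 292 against 94.2 CPM.

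Between the days, the cycling cells of day 14 had 43 of 7898 genes higher (0.544%) and 46 lower (0.582%) than those of day 10. None of 41 S phase and 56 G2/M genes was called. In the non-cycling cells 20 of 7810 genes were higher (0.256%) and 52 lower (0.666%). *Postn* stood at 2501 against 3390.1 CPM, a log2 ratio of -0.44, and in the non-cycling cells the log2 ratio was -0.51.

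The 10 genes furthest lower at day 14 were *Npy*, *Cxcl1*, *Ccl7*, *Mmp9*, *Ptgs2*, *Sox11*, *Cxcl14*, *Prss46*, *Rgs4*, and *Pappa*. *Npy*, which encodes neuropeptide Y, was at 21.6 and 3.12 CPM. *Cxcl1*, which draws neutrophils, stood at 83.3 and 13.4 CPM at days 10 and 14, *Ccl7*, which draws monocytes, at 80.3 and 15.3 CPM, and *Ptgs2*, which encodes cyclooxygenase 2, at 369 and 72.8 CPM. *Cxcl1*, *Ccl7*, and *Ptgs2* were called lower in the non-cycling cells too, at log2 ratios of -2.30, -2.12, and -1.88. *Sox11*, *Cxcl14*, and *Rgs4* were called lower there as well. Their non-cycling counts were 431, 959, and 2152 UMIs in 1839 cells at day 10. At day 14 these counts were 348, 846, and 2149 UMIs in 4449 cells. *Npy* and *Prss46* were under the mean of 10 CPM needed for a call in the non-cycling cells. They had 177 and 432 UMIs there at day 10, and fewer in more cells, 120 and 319, at day 14. *Pappa* was not called there, with 1361 UMIs at day 10 and 1730 at day 14. *Sox11*, *Cxcl14*, *Prss46*, *Rgs4*, and *Pappa* had log2 ratios between -1.68 and -1.53 in the cycling cells. *Mmp9* was at 109 and 20.9 CPM, and 1 cell held 77.6% of its UMIs at day 10.

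Of 8 measured osteoblast markers 3, *Bglap*, *Bglap2*, and *Spp1*, were called higher at day 14 and none lower, and of 8 chondrocyte markers none was called. The shares over all genes were 0.544% higher and 0.582% lower. *Bglap* went from 4.02 CPM at day 10 to 40.3 CPM at day 14, and *Spp1*, which encodes osteopontin, from 1839 to 4078 CPM. At day 14, 1 cycling cell held 54.8% of the *Bglap* and 1 held 42.3% of the *Bglap2* UMIs. There, 5 cells held 75.3% and 66.4% of them, so these rises lay mostly in few cells. Among the 10 genes furthest higher, *Ihh*, the hedgehog ligand of prehypertrophic cartilage, was at 4.14 and 25.1 CPM, and *Snorc*, a cartilage proteoglycan, at 114 and 451 CPM. For *Ihh*, 5 cells held 66.7% and 62.7% of the UMIs at the 2 days, and for *Snorc* 40.7% and 35.2%. *Bglap*, *Spp1*, *Ihh*, and *Snorc* were called higher in the non-cycling cells as well.

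The furthest higher genes, *S100a8* and *S100a9*, are neutrophil genes. In the cycling cells *S100a9* stood at 0.628 and 39.7 CPM at days 10 and 14, and at 0.834 and 124 CPM in the non-cycling cells. The day 10 level of the cycling cells rested on 5 UMIs. At day 14 it was seen in 23.5% of cycling and 17.3% of non-cycling cells at median depths of 20436 and 14061 UMIs, and 5 cells held 71.9% and 81% of the UMIs. The hematopoietic markers as a whole moved with the day in both groups, as given above, and their part in the other day differences was not tested.

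**Figure D5:**
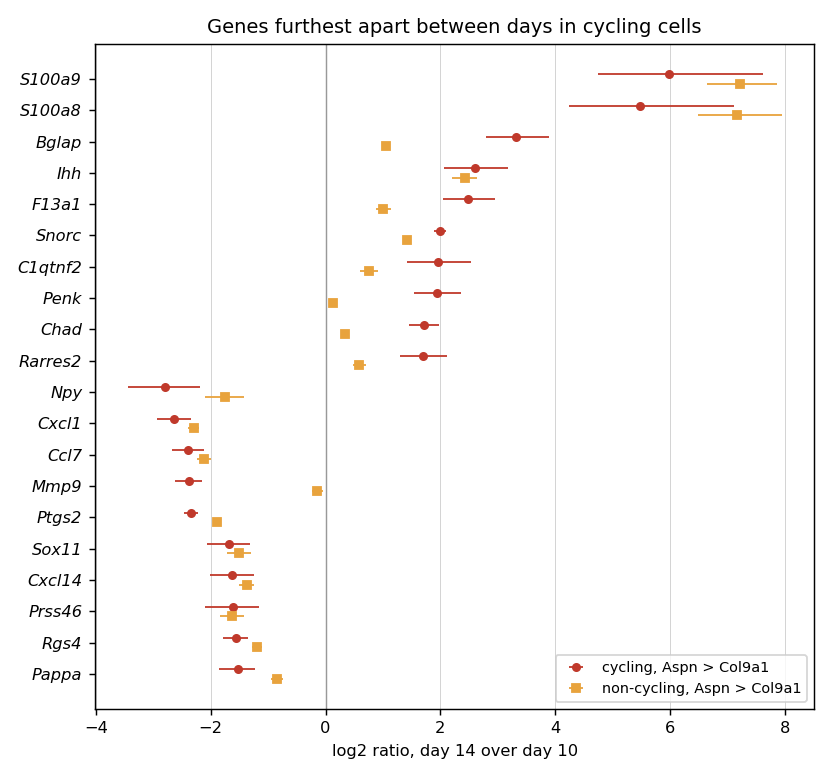
Log2 ratios of day 14 over day 10 (x axis) for the 20 genes furthest apart in the cycling *Aspn*-side cells, with the same genes in the non-cycling cells, and 95% counting intervals as bars. *S100a8* and *S100a9* are furthest right in both groups. *Npy*, *Cxcl1*, *Ccl7*, *Ptgs2*, *Sox11*, *Cxcl14*, *Prss46*, *Rgs4*, and *Pappa* are left of 0 in both. *Mmp9* is at -2.38 in the cycling and -0.14 in the non-cycling cells.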

How the data were processed

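The deposited files hold whole UMI counts per gene and cell, made by the authors with Cell Ranger and not normalized. Its version is 3.0 in the submitters' processing notes, which name mm10, and 3.1.0 in the matrix headers. Kept cells had at least 500 genes, at most 10% mitochondrial and 5% hemoglobin UMIs, and no *Ptprc* UMI, with no upper gene limit, since cycling cells are deep. The study's limit of 5000 genes was an alternative. Libraries held 144103160 (day 10) and 195661880 (day 14) UMIs. Counts were summed per group and day and divided by the group total (CPM). Ratios carry conditional binomial, CPM exact Poisson, and shares Clopper-Pearson 95% intervals. The comparison of sums was run on simulated Poisson counts, where 95.4% (day 10) and 95.5% (day 14) of intervals held the true ratio. The intervals assume the same model and the simulated counts held no spread between cells, so this coverage was built in. Named genes are those of the lists and, for each comparison, the 10 furthest each way among called genes. The cells, the lists, and the promoter motifs were chosen with earlier results of these data known. Tools were Python 3.11.15, numpy 2.4.6, scipy 1.17.1, pandas 2.3.3, and matplotlib 3.10.9. Gene positions are from GENCODE M21 (GRCm38).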

Additional observations from a re-analysis of the deposited data

Results flagged for a closer look

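The *Mmp9* gene, which encodes a matrix protease abundant in osteoclasts and neutrophils, differed over 2-fold in opposite directions at the 2 days, with a log2 ratio of cycling over non-cycling cells of 1.10 at day 10 and -1.14 at day 14, and this difference was not tested. At day 10, 673 of 867 *Mmp9* UMIs of the cycling cells lay in 1 cell, and in the non-cycling cells 1 cell held 621 of 1462. At day 14 the shares of UMIs in 1 cell were 26.4% and 16.4%.

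At day 7, a library outside the rule, 22 of 726 cells within the limits met it, 23.4% (15.3 to 33.3) of 94 cells with more *Aspn* than *Col9a1*. Their *Postn* was at 3998 CPM against 4862 CPM in 45 non-cycling cells, and *Ogn* at 286 against 731 CPM. *S100a9* was at 855 and 754 CPM in these groups, and the library held 9103 deposited cells, most of them outside the limits.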

How the results depend on the processing

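Without a filter on low values, 591 genes were higher and 218 lower than in non-cycling cells, 809 and 484 than in cycling cartilage-side cells, and 395 and 213 at day 14 than at day 10. At a mean of at least 50 CPM these counts were 80 and 16, 159 and 106, and 14 and 15, with 6 S phase and 19 G2/M genes higher. At a fold of 1.5 they were 564 and 252, 874 and 447, and 172 and 206, with 2 matrix genes lower. Fewer or more genes pass by construction. With at least 3 *Aspn* and no *Col9a1* UMIs, the shares of kept cells were 1.60% at day 10 and 1.25% at day 14, 77 genes were lower in cycling cells, 634 were higher than on the cartilage side, 99 were higher and 101 lower at day 14, and the *Postn* log2 ratios were -0.0892 and -0.11. With cells thinned to 5000 UMIs, the shares were 3.1% and 2.43%, 77 genes were lower in cycling cells, 109 were higher and 128 lower at day 14, and the day 14 *Postn* ratio was -0.15. With at most 5000 genes per cell, the shares were 3.84% and 2.60%, 65 genes were lower, and the *Postn* ratios were 0.0173 and -0.17. With at least 2 of the 6 genes the shares were 6.21% and 4.42%, and with at least 4 they were 4.22% and 2.72%, with a day 14 *Postn* ratio of 0.0715. Without the deepest 10% of cells the day 14 share was 3.02% and the *Postn* ratio there -0.15. The *Postn* ratios were -0.0714 and 0.11 with comparison cells matched on UMIs, 0.0133 and 0.0148 with each cell weighing the same (71 genes lower), and 0.0043 and 0.0790 without *Rgs5*-rich cells, chosen after seeing the data. That setting, which drops cells by *Rgs5* itself, turned the *Rgs5* ratio of day 10 from 1.18 to -0.64, and matching on UMIs raised it to 3.19. Among other named genes, the day 10 ratio of *Abi3bp* (-2.09) was -3.05 with no *Col9a1* UMIs and that of *Mfap4* (-2.12) was -1.20 with matching. Of the values of single genes, 360 stayed within their intervals and 255 moved beyond them. The cause of these moves was not tested. The limit of 5% mitochondrial UMIs and the median-of-ratios scaling kept each count within 1.5 times and each share and *Postn* ratio within its interval. Over all of these settings the *Ogn* ratio lay between -1.94 and -1.42 at day 10 and between -1.92 and -1.26 at day 14. Matching on UMIs gives no share and no day comparison. No paired analysis was possible because each day has 1 library.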

Other observations

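Across whole libraries, *Ddx3y* on the Y chromosome had 5763, 11058, and 14015 UMIs at day 7, day 10, and day 14, and *Xist* had 4, 15, and 15.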
